A study of Mus musculus with 12 samples.

Results

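The genes described here are 8 subunit genes of myosin II, the filament-forming motor of the actin cytoskeleton: the heavy chains Myh9, Myh10, Myh11 and Myh14 and the light chains Myl6, Myl9, Myl12a and Myl12b. Every probe set annotated with 1 of these symbols alone was taken, which gave 16 of the 45101 probe sets of the array, 10 for heavy and 6 for light chains. A further 2 probe sets name Myl6 beside other symbols and were left out. RNA came from primitive blood progenitors of normal mouse bone marrow, sorted as lineage-negative, c-Kit+, Sca-1+ and FLT3-negative cells, and each sample was hybridised to 1 array. The INV16 group (4 arrays, replicates 1 to 4) received a retrovirus encoding the leukaemia fusion of CBFB with the smooth muscle heavy chain MYH11. The ACD mutant group (3 arrays, replicates 1 to 3) received the same fusion without its assembly competent domain, a form described as unable to cause leukaemia. The MIB control group (5 arrays, replicates 3 to 7) received the empty vector. All groups were cultured with 10% serum. They were kept for 24 h in culture with stem cell factor (50 ng/ml) and interleukin 6 (5 ng/ml). They were then exposed to virus for 4 h and cultured for a further 20 h, and their GFP-positive cells were sorted. The fusions were thus carried by a retroviral vector beside the intact mouse genes, over a short time.

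A myosin II molecule holds a pair of heavy chains, each with a motor head and a long coiled-coil tail, and each head carries an essential and a regulatory light chain. The tails pack side by side into bipolar filaments, and phosphorylation of the regulatory light chain, by myosin light chain kinase among others, switches the motor on, while myosin phosphatase switches it off. In blood cells the motor drives cell division, migration and the shaping of platelets, with Myh9 as the main heavy chain. The fusion takes from MYH11 the tail only, and its assembly competent domain lies in that tail. These facts are background and were not measured here.

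Beyond their groups the arrays fell into 2 sets, and 1 array stood apart. The sets differ in the level of BioC relative to BioB, bacterial RNAs added as controls (at least 1.07 log2 in the first and at most 0.073 in the second); they are called set A and set B. Set A held INV16 replicates 1 to 3 and MIB control replicates 3 to 5, and set B held INV16 replicate 4, all ACD mutant arrays and MIB control replicates 6 and 7. INV16 replicate 4 correlated with the other 11 arrays at 0.895 to 0.917 over all probe sets, against at least 0.985 among those 11. Its 12 mast cell markers averaged 9.69 log2, against 6.45 to 7.12 on the others, and its 12 progenitor markers averaged 8.32, against 10.51 to 11.04. It was kept apart, and every test below rests on the other 11 arrays unless stated. The 3' minus 5' difference of Gapdh, which grows as RNA breaks down, was 3.17 in ACD mutant replicate 1 and 1.10 to 1.98 on the other 10 of these arrays. In INV16 replicate 4 it was 3.64. The values are expression values as deposited, read as log2, and their precision is limited by the number of arrays.

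The first question was which of these genes the cells expressed above background. The table holds no detection call, so each probe set was set against 128 off-tissue probe sets (lens, retina, liver, sperm and olfactory receptor genes and the like), of which 95% averaged at or under 6.63 log2, with a median of 4.52. Near background by this limit were 7 of the 16 myosin II probe sets, and the other 9 lay above it. Of the 7, 4 also lay under the expression filter of 5.07 and were not tested: both of Myh11, the single one of Myl9 and 1441057_at of Myh10. The remaining 3 were Myh9 1440708_at, Myh14 1428835_at and Myl12b 1428609_at, with means of 6.34, 6.52 and 6.51. Above the limit stood 4 probe sets of Myh9, 1 of Myh10, 1 of Myl6, both of Myl12a and 1 of Myl12b.

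**Figure D1:**
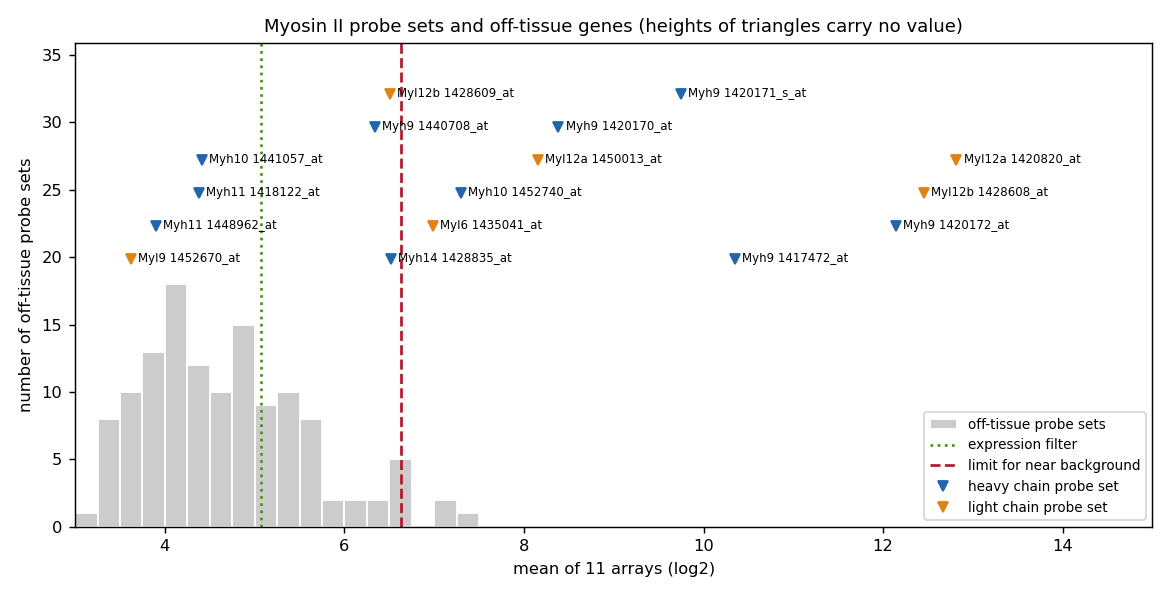
Mean log2 value over 11 arrays (horizontal axis) of the 16 myosin II probe sets (triangles, with heights that carry no value), above a histogram of the number of off-tissue probe sets per 0.25 log2 (vertical axis). The dotted line is the expression filter at 5.07 and the dashed line the limit for near background at 6.63; 7 triangles lie left of the dashed line.

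Myh11, the mouse counterpart of the fusion partner and the heavy chain of smooth muscle, was near background in every group. Its probe set 1418122_at measured 4.34, 4.41 and 4.46 in INV16 replicates 1 to 3, 4.22, 4.34 and 4.21 in ACD mutant replicates 1 to 3, and 4.33, 4.37, 4.40, 4.46 and 4.68 in MIB control replicates 3 to 7. Its probe set 1448962_at measured 3.85, 4.12 and 3.96 in INV16, 3.71, 3.78 and 3.69 in the ACD mutant, and 4.08, 3.92, 3.93, 3.96 and 3.91 in MIB control. The groups overlapped except at 1448962_at, where the ACD mutant arrays were the lowest 3 of the 11, with a mean 0.23 log2 under MIB control and 0.25 under INV16. Since the labels do not say from which species its sequence came or which part the probes match, these values do not measure how much fusion the cells made.

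Myl9, the regulatory light chain that smooth muscle and platelets use, was also near background. It measured 3.59, 3.54 and 3.67 in INV16, 3.57, 3.65 and 3.52 in the ACD mutant, and 3.58, 3.82, 3.59, 3.56 and 3.81 in MIB control, so that the groups overlapped. Of 15 smooth muscle and pericyte markers on the array, 13 were near background as well, and their mean was 5.28 to 5.43 in INV16, 5.24 to 5.31 in the ACD mutant and 5.25 to 5.35 in MIB control. A RefSeq table of promoter windows (GRCm38.p6, 250 bases before to 50 after the start site) held 8 windows for 7 of the 8 genes, and Myh11 was not among them. The windows were searched on both strands for the RUNX motifs TGTGGT and TGCGGT, since RUNX proteins are the partners of CBFB, and for the CArG box of serum response factor, a regulator of contractile genes. The window of Myl9 is shown because it was the only 1 of the 8 with a RUNX motif, and it also held a CArG box. The window lies at chr2:156775214-156775513 on the plus strand, and capitals mark, in this order, the CArG box and the motif TGCGGT, which reads on the opposite strand.
Myl9: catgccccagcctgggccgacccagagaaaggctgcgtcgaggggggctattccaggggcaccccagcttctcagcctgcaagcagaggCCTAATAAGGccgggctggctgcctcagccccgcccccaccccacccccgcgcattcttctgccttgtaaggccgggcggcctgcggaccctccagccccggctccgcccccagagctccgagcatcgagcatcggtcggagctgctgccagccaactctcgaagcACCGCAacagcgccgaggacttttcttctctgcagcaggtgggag
The CArG box starts 161 bases before the start site, and the TGCGGT match starts at base 6 of the transcript. A CArG box also lay in 1 of the 2 windows of Myl6. Over all 32851 windows of this length, 22.4% held TGTGGT or TGCGGT and 1.63% a CArG box. A match describes these letters and is not a binding site.

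Myh9, which encodes the heavy chain of nonmuscle myosin IIA, has 5 probe sets, and they did not move as 1. The largest range over the 11 arrays among all tested myosin II probe sets, 1.99 log2, was that of 1420170_at. It measured 7.57, 7.98 and 7.61 in INV16 replicates 1 to 3, 8.41, 8.44 and 8.66 in ACD mutant replicates 1 to 3, and 8.32, 8.25, 8.14, 9.28 and 9.56 in MIB control replicates 3 to 7. All INV16 arrays lay below all others, and within MIB control the 2 arrays of set B lay above the 3 of set A. The probe set 1420171_s_at measured 9.24, 9.63 and 9.41 in INV16, 9.39, 9.27 and 9.30 in the ACD mutant, and 10.43, 9.54, 9.56, 10.84 and 10.66 in MIB control. Here the ACD mutant lay below all MIB control arrays, and INV16 overlapped them. The probe set 1417472_at measured 9.88, 10.19 and 10.07 in INV16, 10.52, 10.61 and 10.66 in the ACD mutant, and 10.42, 9.84, 10.30, 10.30 and 11.08 in MIB control. At 1417472_at the INV16 arrays lay below the ACD mutant and within the MIB control range. The probe set 1420172_at measured 12.13, 11.82 and 12.31 in INV16, 12.36, 12.75 and 12.07 in the ACD mutant, and 11.61, 12.04, 12.15, 12.01 and 12.31 in MIB control, with all groups overlapping. The dim set 1440708_at lay between 6.00 and 7.11 on all 11 arrays.

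**Figure D2:**
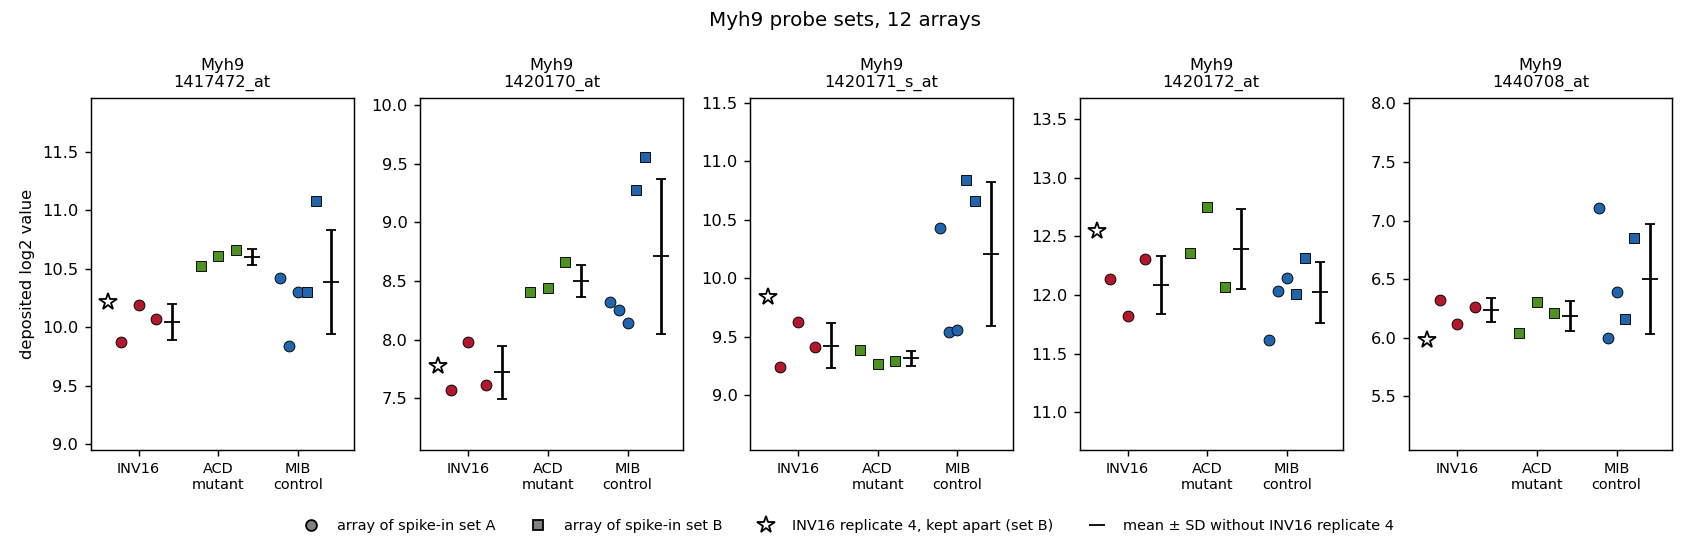
Deposited log2 value (vertical axis, 3 units in each panel) of the 5 Myh9 probe sets by group, with circles for set A and squares for set B, a star for INV16 replicate 4 and a bar for mean ± SD without it. At 1420170_at the INV16 arrays (7.57 to 7.98) lie under all others, and MIB control replicates 6 and 7 (9.28 and 9.56) over all others.

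The first comparison, INV16 against MIB control, asks what the intact fusion changes. No myosin II probe set passed (0 of 12 tested; limma, adjusted p under 0.05), where 1.38% of the 22689 probe sets tested did. At an unadjusted p under 0.05 stood 4 of the 12, all lower, against 15.2% of all tested in either direction and 8.59% lower. The 12 include several probe sets of Myh9. With 1 probe set per gene the count was 1 of 6, against 15.7% of all genes tested in either direction. The groups did not overlap at 2 of 12, against 8.85% of all tested. The median difference of the 12 was -0.22 log2, against -0.019 over all tested. For Myh9 1420170_at the means were 7.72 ± 0.23 in INV16 (SD, n = 3) and 8.71 ± 0.66 in MIB control (SD, n = 5), a log2 difference of -0.99 (SE 0.29, 95% interval -1.62 to -0.36, limma adjusted p = 0.128). Within set A it was -0.52 (SE 0.15, limma adjusted p = 0.248). Myh9 1420171_s_at differed by -0.78 (SE 0.27, limma adjusted p = 0.191), and by -0.42 within set A, whereas 1420172_at differed by 0.063 (interval -0.33 to 0.46). Differences for the same gene thus ran between -0.99 and 0.063, and the intervals of 1420170_at and 1420172_at did not overlap.

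Myh10, the heavy chain of nonmuscle myosin IIB, which maturing megakaryocytes switch off under RUNX1, was above background at 1452740_at. It measured 7.34, 6.55 and 6.95 in INV16, 7.52, 7.68 and 7.52 in the ACD mutant, and 6.99, 7.38, 7.43, 7.19 and 7.71 in MIB control. INV16 overlapped MIB control, with a log2 difference of -0.39 (SE 0.18, limma adjusted p = 0.329), and lay below all ACD mutant arrays. Myh14, the heavy chain of nonmuscle myosin IIC, was near background and differed by 0.11 in INV16 against MIB control (interval -0.13 to 0.35) and by 0.061 in the ACD mutant against MIB control (interval -0.18 to 0.30).

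Of the light chains, Myl12a, a regulatory light chain of nonmuscle myosin, ran at 12.85, 12.79 and 12.94 in INV16, 12.95, 12.94 and 12.82 in the ACD mutant, and 12.67, 12.89, 12.72, 12.67 and 12.75 in MIB control at 1420820_at. Its differences from MIB control were 0.12 in INV16 (interval -0.08 to 0.32) and 0.16 in the ACD mutant (interval -0.04 to 0.37). These intervals hold 0 and leave room for changes of up to 0.37 log2. Its other probe set, 1450013_at, spanned 7.92 to 8.36 over the 11 arrays. Myl12b, a close relative of Myl12a that lies on the same chromosome, 17, ran at 12.31, 12.18 and 12.42 in INV16, 12.50, 12.64 and 12.62 in the ACD mutant, and 12.36, 12.42, 12.32, 12.60 and 12.67 in MIB control at 1428608_at. The probe set followed the array sets in MIB control, where both set B arrays exceeded the 3 of set A, and INV16 differed from MIB control by -0.17 over all and by -0.061 within set A. Its dimmer probe set 1428609_at lay near background. It measured 6.45, 6.35 and 6.38 in INV16 and 6.49, 6.32 and 6.16 in the ACD mutant. In MIB control it measured 6.79, 6.56, 6.74, 6.61 and 6.75. Both fusion groups lay under MIB control there, by -0.29 in INV16 (SE 0.10, limma adjusted p = 0.193) and by -0.36 in the ACD mutant (SE 0.10, limma adjusted p = 0.0780), while 1428608_at differed by -0.17 and 0.11. The 2 comparisons share their control arrays. Whether a probe of Myl12a or Myl12b also binds the RNA of the other was not tested.

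**Figure D3:**
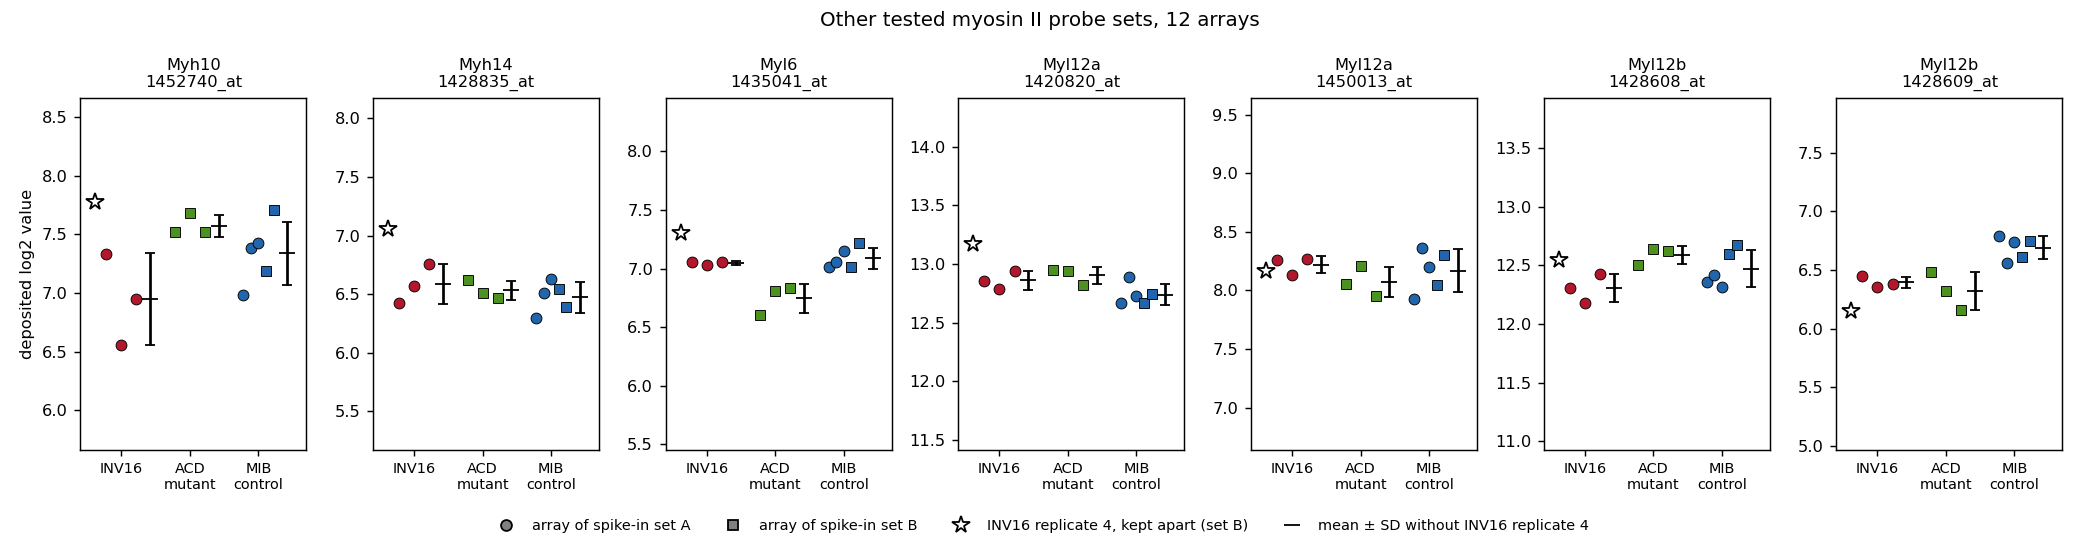
Deposited log2 value (vertical axis, 3 units in each panel) of the 7 other tested probe sets by group, drawn as for Myh9. At Myl6 the 3 ACD mutant arrays lie under all MIB control arrays, and at Myh10 over all 3 INV16 arrays of set A.

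The second comparison, the ACD mutant against MIB control, asks what the fusion changes without the domain. Again 0 of 12 passed (limma), where 1.70% of all tested did, and 3 of 12 stood at an unadjusted p under 0.05, all lower, against 19.6% of all tested in either direction and 9.28% lower. Those 3 were also the ones whose groups did not overlap, against 12.9% of all tested. With 1 probe set per gene, 1 of 6 stood at an unadjusted p under 0.05, against 19.4% of all genes tested. The median difference of the 12 was -0.016 log2, against 0.0029 over all tested. Myl6, the essential light chain shared by smooth muscle and nonmuscle myosin, measured 7.06, 7.03 and 7.06 in INV16, 6.61, 6.81 and 6.83 in the ACD mutant, and 7.01, 7.06, 7.15, 7.01 and 7.22 in MIB control at 1435041_at. This probe set averaged 6.98 over the 11 arrays, not far above the limit for near background of 6.63. The ACD mutant arrays were below all others, by -0.34 against MIB control (SE 0.10, interval -0.55 to -0.13, limma adjusted p = 0.0776), and INV16 differed from MIB control by -0.040 (interval -0.25 to 0.17). The lowest ACD mutant array was replicate 1, the array with the high Gapdh ratio, and its value of 6.61 lay under that limit. Leaving out 1 array at a time gave differences from MIB control of -0.38 to -0.27, the weakest without this replicate. The part of RNA breakdown in the result was not tested. At 1420171_s_at, Myh9 averaged 9.32 ± 0.064 in the ACD mutant (SD, n = 3) and 10.21 ± 0.61 in MIB control (SD, n = 5), a log2 difference of -0.89 (SE 0.27, limma adjusted p = 0.0982).

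Within set B, which held all 3 ACD mutant arrays but only 2 of MIB control, this Myh9 difference was larger and passed. Another Myh9 probe set, 1420170_at, passed there too. Over all 11 arrays its groups overlapped, with a difference of -0.21 (interval -0.84 to 0.43, limma adjusted p = 0.758). The MIB control arrays of set B, at 9.28 and 9.56, were its highest values. The differences within set B were -1.43 at 1420171_s_at (SE 0.12, limma adjusted p = 0.0237) and -0.92 at 1420170_at (SE 0.14, limma adjusted p = 0.0468), where 0.410% of all tested probe sets were called. With the set as a block over all 11 arrays the same differences had limma adjusted p = 0.0503 and limma adjusted p = 0.0542. Other Myh9 probe sets did not follow: within set B 1417472_at differed by -0.093 (SE 0.21) and 1420172_at by 0.23 (SE 0.20). The spike-in BioB itself lay at 7.13 to 7.49 in the ACD mutant arrays and at 8.57 and 8.76 in the 2 MIB control arrays of that set, and its part in the result was not tested.

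**Figure D4:**
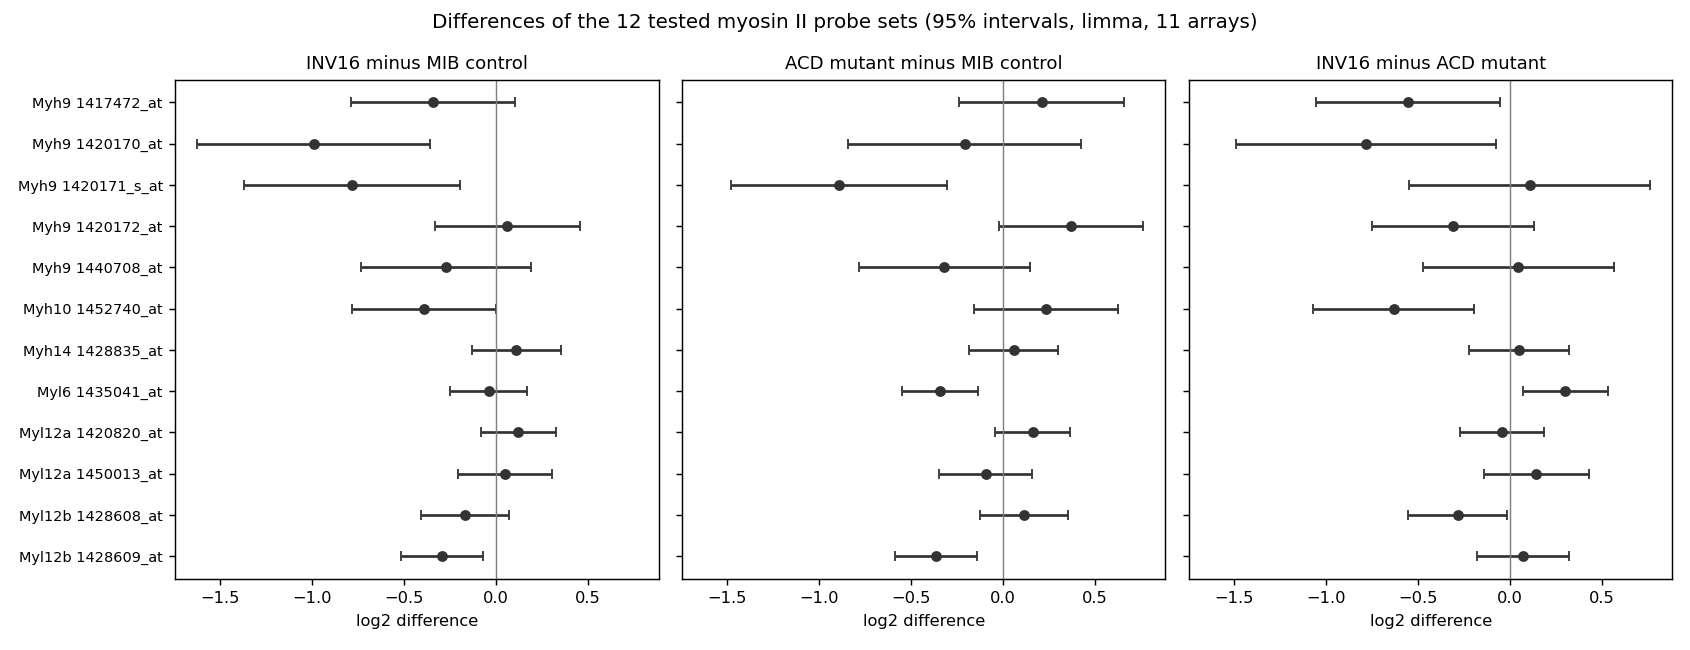
Log2 difference (horizontal axis) with its 95% interval for the 12 tested probe sets (rows) in the 3 comparisons (panels), from limma on 11 arrays. The widest departures from 0 belong to Myh9 1420170_at (-0.99, INV16 minus MIB control) and 1420171_s_at (-0.89, ACD mutant minus MIB control), while 1420172_at of the same gene sits at 0.063 and 0.37.

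The third comparison, INV16 against the ACD mutant, asks what depends on the assembly competent domain. No myosin II probe set passed (0 of 12, limma), where 1.26% of all tested did. At an unadjusted p under 0.05 stood 5 of 12, 4 of them lower, against 18.3% of all tested in either direction and 11.5% lower, and the groups did not overlap at 5 of 12, against 28.0% of all tested. The median difference of the 12 was 0.0024 log2, against -0.0092 over all tested. With 1 probe set per gene, 3 of 6 stood at an unadjusted p under 0.05, against 19% of all genes tested. Myh10 1452740_at averaged 6.95 ± 0.39 in INV16 and 7.58 ± 0.095 in the ACD mutant (SD, n = 3 each), a log2 difference of -0.63 (SE 0.20, interval -1.07 to -0.19, limma adjusted p = 0.130). Myh9 differed by -0.55 at 1417472_at and -0.78 at 1420170_at but by 0.11 at 1420171_s_at, and Myl6 by 0.30. With INV16 replicate 4 left out, all INV16 arrays are of set A and all ACD mutant arrays of set B, so group and set cannot be told apart by this comparison alone. Through the MIB control arrays, which lie in both, the difference of Myh9 1420170_at became 0.40 (SE 0.21, limma adjusted p = 0.542), the opposite sign. In the same fit Myh9 1420171_s_at differed by 1.01 (SE 0.31, limma adjusted p = 0.370), Myh9 1417472_at by -0.047 (SE 0.30) and Myh10 by -0.44 (SE 0.30), and 0 of the 22689 probe sets were called. When the fit held the 2 groups alone, Myh9 1417472_at and 1420170_at passed with the same differences (limma adjusted p = 0.0383 and limma adjusted p = 0.0248), while 4.65% of all tested did. Megakaryocyte and platelet markers, 15 on the array with 5 near background, were read on the same arrays. Their mean was 7.47 to 7.53 in INV16, 8.26 to 8.54 in the ACD mutant and 7.35 to 8.67 in MIB control. By array set it was 7.35 to 7.53 in set A and 7.70 to 8.67 in set B. Of the 13 tested, 0 were called in INV16 against the ACD mutant. Their median difference was -1.01, against -0.025 over all genes. MIB control replicate 7 held the highest value both of these markers and, among the 11 arrays, of Myh10 1452740_at. The 12 mast cell markers, 7 of them near background, averaged 6.64 to 6.71 in INV16, 6.97 to 7.08 in the ACD mutant and 6.45 to 7.12 in MIB control. The 6 tested had a median difference of -0.88 in INV16 against the ACD mutant, with 0 called. The part of these markers in the result was not tested, and in such bulk samples fewer cells of a type and less RNA per cell cannot be told apart.

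INV16 replicate 4 was the highest or lowest of the 12 arrays at 7 of the 16 probe sets, above the rest at 5 and below at 2, where this held for 64.0% of all probe sets with 1 symbol. Myh10 1452740_at measured 7.78 there, against 6.55 to 7.34 on the other INV16 arrays, and Myh14 measured 7.05, against 6.42 to 6.76. For Myl12a 1420820_at it was 13.17, against 12.79 to 12.94. Among the Myh9 probe sets its value lay within the range of the other INV16 arrays at 1420170_at (7.78) and just above it at 1417472_at (10.21, against 9.88 to 10.19). It was 9.84 at 1420171_s_at, against 9.24 to 9.63, and 12.55 at 1420172_at, against 11.82 to 12.31, whereas at 1440708_at it was 5.98, against 6.12 to 6.32. With all 12 arrays 0 of the 12 tested probe sets passed in each comparison (limma), with 3 at an unadjusted p under 0.05 in each. Of all 22689 tested, 0.212% passed in INV16 against MIB control, 0.0220% in the ACD mutant against MIB control and 0.0881% in INV16 against the ACD mutant, and 14.4%, 7.79% and 11.6%, in the same order, stood at an unadjusted p under 0.05.

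The genes that switch myosin II on or off or share its filaments were read from 5 lists, with 1 probe set per gene. In INV16 against MIB control 0 of the 74 genes tested rose and 2 fell, where 1.39% of 12901 genes were called. Lsp1, a leukocyte protein that binds actin filaments, measured 7.93, 8.03 and 7.74 in INV16, 9.04, 9.24 and 9.17 in the ACD mutant, and 8.63, 8.36, 8.68, 9.23 and 9.12 in MIB control. It fell by 0.91 on the log2 scale in INV16 against MIB control (SE 0.18, limma adjusted p = 0.0270) and by 1.25 against the ACD mutant (SE 0.20, limma adjusted p = 0.0131). With the set as a block the first remained called at -0.66 (limma adjusted p = 0.0365; within set A alone it was not, limma adjusted p = 0.161) and the second was not, at -0.63 (limma adjusted p = 0.360). Mprip, a scaffold that ties myosin phosphatase to actin, measured 10.12, 10.16 and 10.01 in INV16, 10.45, 10.47 and 10.61 in the ACD mutant, and 10.60, 10.38, 10.69, 10.73 and 10.63 in MIB control. It fell by 0.51 on the log2 scale in INV16 against MIB control (SE 0.10, limma adjusted p = 0.0317) and was no longer called with the block (-0.46, limma adjusted p = 0.0826). Its other tested probe set, 1456763_at, differed by -0.20. Without MIB control replicate 5 or 7, or any 1 of the 3 INV16 arrays, neither gene was called, and Mprip was also lost without MIB control replicate 6 or ACD mutant replicate 1 or 2 (adjusted p up to 0.124 for Lsp1 and 0.142 for Mprip, limma).

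By list, the activators (21 genes) had a median log2 difference of 0.065 in INV16 against MIB control with 0 called, the restraining genes (12) -0.10 with Mprip called, the actin filament partners (23) 0.028 with Lsp1 called, the unconventional myosins (14) 0.018 with 0 called, and the sarcomeric myosin II genes (4) 0.043 with 0 called; the median over all genes was -0.031. The kinase Dapk1 and the GTPase Rhoc were nearest to passing among activators (0.45, limma adjusted p = 0.133, and 0.39, limma adjusted p = 0.168). In the ACD mutant against MIB control 1 of 74 rose and 0 fell, where 1.47% of all genes were called. The list medians were 0.12 for activators, 0.088 for restraining genes, 0.034 for actin partners, 0.11 for unconventional and -0.10 for sarcomeric myosins, against 0.0059 over all genes. Arhgef12, a guanine nucleotide exchange factor for small GTPases, measured 8.92, 8.89 and 8.72 in INV16, 9.02, 9.21 and 9.11 in the ACD mutant, and 8.58, 8.17, 8.29, 8.29 and 8.81 in MIB control. INV16 differed by 0.41 from MIB control (SE 0.14, limma adjusted p = 0.180) and by -0.27 from the ACD mutant (limma adjusted p = 0.392). In the ACD mutant against MIB control it rose by 0.68 log2 (SE 0.14, limma adjusted p = 0.0383) at 1423902_s_at, with 1451159_at at 0.21 and 1446965_at at -0.061, and was not called within set B (0.56, limma adjusted p = 0.125). It kept its call in 3 of 11 fits that each left out 1 array, namely when replicate 3 or 7 of MIB control or INV16 replicate 3 was absent. The focal adhesion protein Tln1 (0.56, limma adjusted p = 0.0682) and the actin monomer binder Pfn1 (-1.04, limma adjusted p = 0.0937) did not pass.

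In INV16 against the ACD mutant 1 of 74 rose and 2 fell, where 1.38% of all genes were called. The list medians were -0.034 for activators, -0.30 for restraining genes, 0.018 for actin partners, -0.12 for unconventional and 0.15 for sarcomeric myosins, against -0.025 over all genes. Beside Lsp1, the calponin Cnn2 fell by 0.69 on the log2 scale (10.18, 10.08 and 10.00 in INV16, against 10.61, 10.88 and 10.84 in the ACD mutant; limma adjusted p = 0.0267). Myl4, an essential light chain of atrial and embryonic muscle, was 0.58 higher (6.58, 6.35 and 6.52 in INV16, against 5.98, 6.02 and 5.73 in the ACD mutant; limma adjusted p = 0.0304), at levels near background, and its other probe set differed by 0.23. With the set as a block, where 0 of the 22689 probe sets were called, the differences were -0.63 for Lsp1, -0.41 for Cnn2 and 0.61 for Myl4 (limma adjusted p of at least 0.349). All 3 calls were lost without INV16 replicate 1 or ACD mutant replicate 2, and Cnn2 and Myl4 without INV16 replicate 2 or 3 or ACD mutant replicate 3 too, and Myl4 without ACD mutant replicate 1. Lsp1, Cnn2 and Myl4 then had a limma adjusted p of up to 0.0779, 0.127 and 0.111. Among the sarcomeric genes 14 of 15 on the array were near background.

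**Figure D5:**
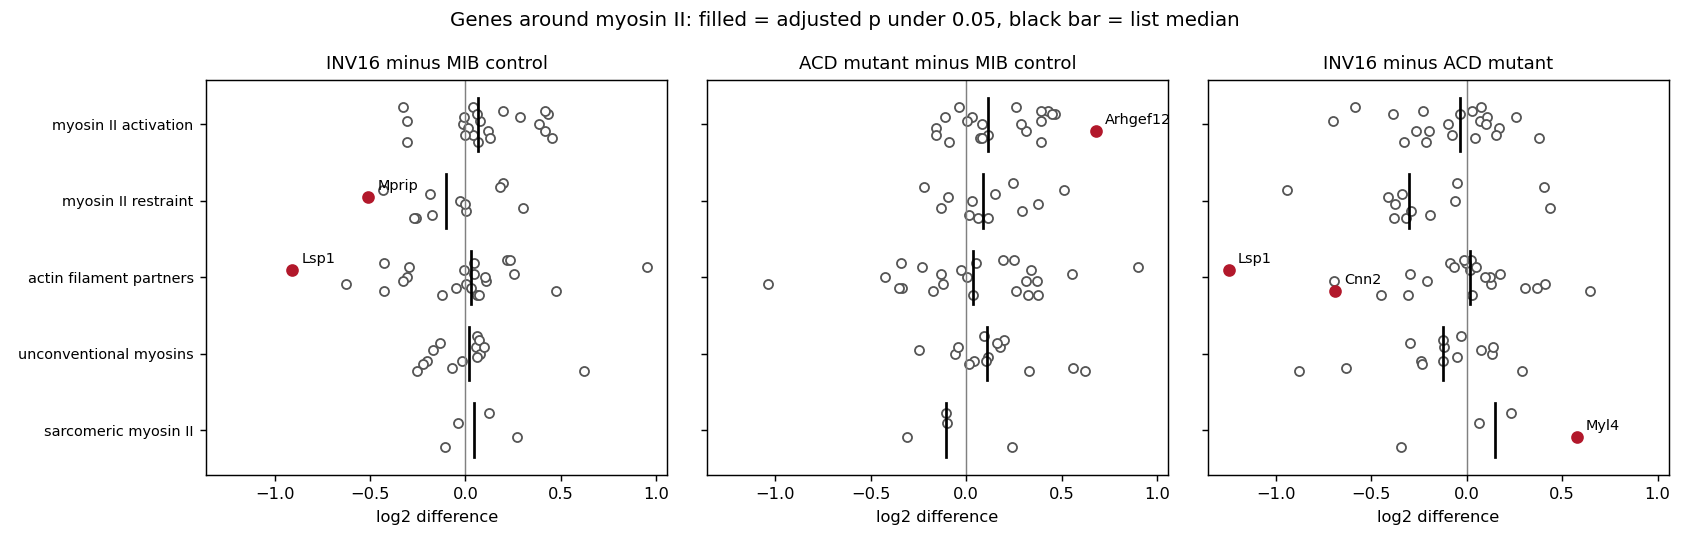
Log2 difference (horizontal axis) of each tested gene of the 5 lists (rows) in the 3 comparisons (panels), 1 point per gene, filled and named where called, with a bar at the list median. Of 74 genes 2, 1 and 3 are called, and Lsp1 is farthest from 0 among them.

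The genes whose pattern was most like that of Myh9 1420170_at over the 11 arrays were Jmjd4 (Pearson r = 0.955), Mfsd5 (0.951), Trp53rka (0.950), Rapgef1 (0.943) and Dgcr6 (0.940), among 12901 genes with 1 probe set each; their Spearman rank correlation was 0.809 to 0.927. The 11 points share their group and array set, and the likeness is a description only.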

How the data were processed

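The deposited table holds log2 expression values of 45101 probe sets as deposited by the authors; amplification with a 2-cycle kit and biotin labelling are given per the labels' protocols, and the background correction, normalisation and summarisation are not given in the sources used here. The log base is not stated; the values span 2.82 to 14.97 and were read as log2. Array medians differed by at most 0.169. Gene symbols came from the annotation of the array platform (932 with several symbols, 9211 with none and 64 controls left out), and the Entrez identifiers of all 8 genes matched RefSeq with the same symbol. Replicates were separate sorts and transductions, per the design text. The 22689 single-symbol probe sets with a mean over 11 arrays above the 40th percentile (5.07) were tested with limma (version 3.58.1, R version 4.3.3; a mean per group, 8 residual and 4.66 prior degrees of freedom, two-sided, Benjamini-Hochberg over all tested). Array sets were split at a BioC minus BioB of 0.5 log2. Lists used the probe set with the highest mean per gene. The fit was tested on simulated data. Named were all members, up to 4 called genes per list (otherwise the 2 with the smallest p, of which some are printed) and the 5 genes most like the most variable member. Members, lists, tests and array sets were chosen with earlier results of these data known. Columns left unused numbered 0. Alternatives are given in the closing section.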

Additional observations from a re-analysis of the deposited data

Results flagged for a closer look

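Single values stood apart in 2 of 32 groups of 4 or 5 arrays examined by Dixon's test, near the 1 in 20 that chance flags. Myl6 1435041_at measured 7.31 in INV16 replicate 4, against 7.03 to 7.06 on the other INV16 arrays, and Myh11 1448962_at measured 4.08 in MIB control replicate 3, against 3.91 to 3.96 on the other MIB control arrays.

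INV16 replicate 4, left out of the comparisons except where all 12 arrays are named, lay above every MIB control array at 6 of the 16 probe sets, against 43.7% of all probe sets with 1 symbol, and below every one at 3, against 30.9%. Myh9 1420172_at measured 12.55 against 11.61 to 12.31 in MIB control, Myh10 1452740_at 7.78 against 6.99 to 7.71, and Myh14 1428835_at 7.05 against 6.30 to 6.63. Myl12a 1420820_at measured 13.17 against 12.67 to 12.89, Myl6 1435041_at 7.31 against 7.01 to 7.22, and Myh11 1448962_at 4.24 against 3.91 to 4.08. Below the MIB control arrays were Myh9 1420170_at at 7.78 against 8.14 to 9.56, Myh9 1440708_at at 5.98 against 6.00 to 7.11, and Myl12b 1428609_at at 6.15 against 6.56 to 6.79.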

How the results depend on the processing

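The count of called myosin II probe sets stayed at 0 in all 3 comparisons with all 12 arrays, no filter, 1 probe set per gene, quantile normalization, the array set as a block and each of 11 arrays left out in turn. It was 2 within set B for the ACD mutant against MIB control and 2 in the fit to the 2 groups alone for INV16 against the ACD mutant. The replicate block, possible for INV16 and the ACD mutant only, gave 0 member and 2 list calls; same-numbered arrays deviated apart (correlations -0.13, -0.20 and -0.32), so the numbers were not taken as pairs. No paired analysis was possible for the other comparisons because they share 1 replicate number.

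The number near background was 4 instead of 7 with the expression filter as the limit. List calls numbered 2, 1 and 3 in INV16 against MIB control, the ACD mutant against MIB control and INV16 against the ACD mutant. They were 0 in each with all 12 arrays, 1, 0 and 0 with the set as a block, 0 within set A and 0 within set B, and 0, 0 and 7 in fits to 2 groups alone. Leaving out 1 array gave 0 to 2, 0 to 1 and 0 to 5. These list alternatives were added after the data were seen.

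Some differences turned sign. In INV16 against MIB control Myl6 1435041_at was 0.025 with all 12 arrays; leaving out 1 array gave -0.047 to 0.197 for Myh9 1420172_at, below 0 without MIB control replicate 3 or INV16 replicate 3, and -0.0103 to 0.099 for Myl12a 1450013_at, below 0 without MIB control replicate 3. In the ACD mutant against MIB control, the set as a block and set B alone each gave -0.093 for Myh9 1417472_at, -0.048 for Myl12b 1428608_at and -0.030 for Lsp1, and leaving out 1 array gave -0.35 to 0.0047 for Myh9 1420170_at, above 0 without MIB control replicate 7. In INV16 against the ACD mutant, all 12 arrays gave -0.015 for Myh9 1440708_at, 0.034 for Myl12a 1420820_at and 0.058 for Arhgef12, and the array set as a block gave 0.40 for Myh9 1420170_at. Leaving out 1 array there gave -0.037 to 0.133 for Myh14 1428835_at (below 0 without INV16 replicate 3), -0.023 to 0.108 for Myh9 1440708_at (without ACD mutant replicate 1) and -0.0100 to 0.152 for Myl12b 1428609_at (without ACD mutant replicate 3). The cause was not tested. With 3 to 5 arrays a group, a missed threshold does not show that a gene was unaltered.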
